A study of Mus musculus with 18 samples.

Results

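The interferon-inducible GTPases were followed as 10 genes in the colon of germ-free mice: the guanylate-binding protein genes Gbp2, Gbp3, Gbp4, Gbp6, Gbp7, Gbp8 and Gbp9, and the immunity-related GTPase genes Igtp, Irgm1 and Irgm2. They were taken by symbol from a table of read counts with 45777 genes, and 10 of 10 were among the 18848 genes with enough counts to be tested. The animals were male C57BL/6J mice aged 8 weeks, bred without microbes, and whole colon was taken, so each library mixes epithelium, muscle, stroma and immune cells. The 18 libraries fell into 6 groups of 3, described as biological replicates, which crossed 3 genotypes with 2 drinking conditions. The genotypes were labelled DKO (Lao1-/- Il4i1-/-), LAO1KO (Lao1-/-) and WT (wild type), both genes encoding enzymes that oxidise L-amino acids. Each genotype drank either 2.5% dextran sulfate sodium (DSS), a polysaccharide that damages the colonic epithelium, for 24 hours, or plain sterile water. All groups, controls included, lacked a microbiota, so these are responses in germ-free tissue.

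Guanylate-binding proteins and immunity-related GTPases are among the most strongly induced products of interferon gamma in mouse cells, in part through the transcription factor IRF1. They assemble on the membranes of intracellular microbes and of the vacuoles that hold them, and help to expose bacterial lipopolysaccharide to the inflammatory caspases. Irgm1, Irgm2 and Igtp (also called Irgm3) stay on the cell's own membranes and hold the effector GTPases in check there, and loss of Irgm1 in mice is known to worsen intestinal inflammation.

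The libraries held 26003174 to 36553193 counts. Mitochondrial mRNAs made up 6.89% to 44.9% of them, highest in WT DSS replicate C, whose scaling factor was also the lowest of the 18 (0.625, against up to 1.14). The 11 epithelial markers summed to between 15520 and 36080 CPM (counts scaled to a common library total), with 11 of 11 detected in each library. Il4i1 had 0 counts in all 6 libraries labelled DKO, against 39 and 63 counts over the LAO1KO-labelled DSS and water groups and 10 and 56 over the WT DSS and water groups, although single libraries of those groups were also at 0. Its locus overlaps Il4i1b, and reads of the pair may not be separable. Lao1 was not lower in the knockouts: it had 18 and 14 counts over the DKO-labelled DSS and water libraries, 21 and 10 over those labelled LAO1KO, and 4 and 2 over the WT ones. Lao1 counts therefore did not check the Lao1-/- label, and every direction given below between genotypes rests on the labels. There were 3 libraries taken to stand apart from their groups, chosen after the data were seen: WT water replicate B, LAO1KO water replicate A and WT DSS replicate C. The last was chosen by its mitochondrial share, and no measure is given here for the choice of the others. The members' calls are given with and without these 3 libraries.

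The 10 genes lie on 3 chromosomes of the mouse genome (GRCm38.p6, RefSeq), and each is protein-coding. On chromosome 3 are Gbp7 (142530336 to 142550151), Gbp3 (142560016 to 142573213) and Gbp2 (142620663 to 142638008), all on the plus strand. On chromosome 5 are Gbp8 (105012513 to 105053609), Gbp9 (105076464 to 105110357), Gbp4 (105115767 to 105139586) and Gbp6 (105270702 to 105295871), all on the minus strand. On chromosome 11 are Irgm1 (48865245 to 48871420, minus strand) and, at a distance from it, the neighbours Igtp (58199556 to 58207592) and Irgm2 (58214977 to 58222783), both on the plus strand.

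Promoters are shown because they carry the letters through which interferon signals are known to act. RefSeq windows from 250 bases before to 50 bases after the transcript start were matched for 6 of the 10 genes (7 windows, of which Gbp3 has 2). The windows were searched on both strands for the gamma-activated site (GAS, TTCNNNGAA) and for the interferon-stimulated response element (ISRE, GAAANNGAAA, bound by interferon regulatory factors). Capitals mark the matches in these 4 windows, each written 5′ to 3′ on the gene's own strand.
Igtp (chr11:58199306-58199605, plus strand): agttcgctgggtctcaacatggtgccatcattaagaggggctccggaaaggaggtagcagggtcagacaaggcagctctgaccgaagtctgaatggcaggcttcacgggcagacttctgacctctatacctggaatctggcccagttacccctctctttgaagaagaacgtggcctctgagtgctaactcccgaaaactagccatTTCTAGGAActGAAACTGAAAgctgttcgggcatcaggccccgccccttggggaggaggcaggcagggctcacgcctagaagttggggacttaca
Irgm2 (chr11:58214727-58215026, plus strand): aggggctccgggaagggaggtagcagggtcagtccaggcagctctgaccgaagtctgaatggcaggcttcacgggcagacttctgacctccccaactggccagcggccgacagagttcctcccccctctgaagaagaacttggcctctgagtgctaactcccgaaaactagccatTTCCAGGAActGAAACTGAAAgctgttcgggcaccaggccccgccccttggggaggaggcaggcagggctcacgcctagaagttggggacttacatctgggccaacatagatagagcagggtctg
Gbp7 (chr3:142530086-142530385, plus strand): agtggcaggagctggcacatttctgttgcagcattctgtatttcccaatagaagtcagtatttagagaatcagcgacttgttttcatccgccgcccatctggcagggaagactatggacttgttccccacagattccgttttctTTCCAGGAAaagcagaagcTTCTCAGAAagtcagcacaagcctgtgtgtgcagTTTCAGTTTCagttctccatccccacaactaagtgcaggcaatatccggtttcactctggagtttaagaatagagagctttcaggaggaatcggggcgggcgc
Irgm1 (chr11:48871371-48871670, minus strand): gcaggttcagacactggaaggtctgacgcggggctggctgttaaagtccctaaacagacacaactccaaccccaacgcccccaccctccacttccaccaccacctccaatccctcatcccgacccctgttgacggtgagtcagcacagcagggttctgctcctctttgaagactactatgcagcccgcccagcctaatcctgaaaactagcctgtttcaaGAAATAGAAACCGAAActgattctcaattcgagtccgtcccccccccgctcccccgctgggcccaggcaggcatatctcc
The ISRE letters were found in 6 of 6 genes and in 6 of 7 windows, and in 3.44% of all 32851 RefSeq promoter windows of the same length. The GAS letters were found in 3 of 6 genes (Gbp7, Igtp and Irgm2), and in 8.3% of all windows. Both motifs together were in those 3 genes and in 0.454% of all windows. Igtp and Irgm2 carry the same arrangement, a GAS followed after 2 bases by an ISRE, starting at positions -45 and -34 from the transcript start in Igtp and at -75 and -64 in Irgm2. Irgm1 and the first Gbp3 window each hold 2 ISRE matches that overlap one another, starting at -30 and -45. Gbp7 has 2 GAS matches, TTCCAGGAA and TTCTCAGAA, upstream of its ISRE, and Gbp2 has 1 ISRE, TTTCACTTTC, starting at -59. A match describes letters, not occupancy by a factor. Promoter windows of Gbp4, Gbp6, Gbp8 and Gbp9 were not analysed here.

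**Figure D1:**
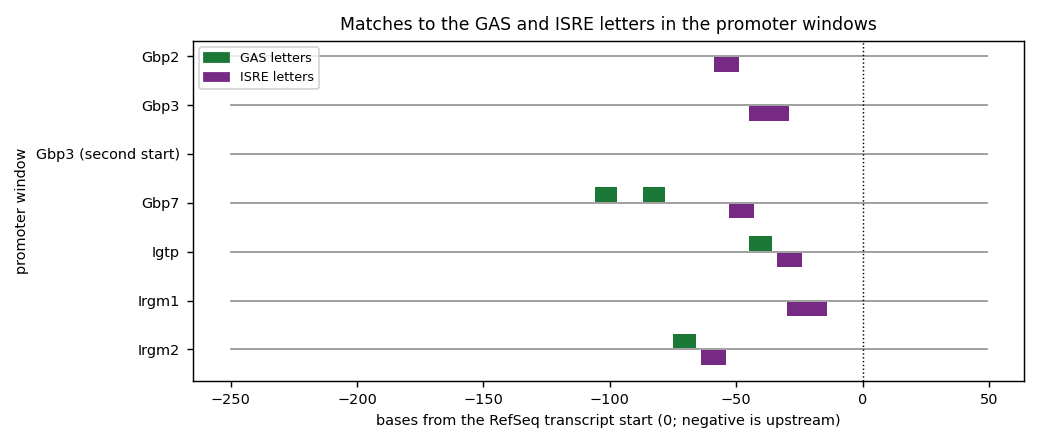
Matches to the GAS (green) and ISRE (purple) letters in 7 promoter windows of 6 genes; the x axis is the distance in bases from the RefSeq transcript start, negative upstream. No ISRE match starts farther upstream than -64, and the second Gbp3 window holds no match.

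How reads that fit more than 1 gene were counted is not stated, which bears on some of these genes more than on others. Of the 100-base stretches of Gbp6 transcripts (GENCODE M21), 64.5% also occur in another gene, and 59% in an overlapping model named Gm43302, so Gbp6 levels are uncertain. The share was 10% for Gbp7, 5.16% for Igtp and 3.01% for Irgm2 (each with the other), 4.39% for Gbp8, and under 2% for Gbp9, Gbp4 and Gbp3. Gbp2 and Irgm1 shared none. In GENCODE M21, whose models extend beyond the RefSeq positions given above, Gbp8, Gbp9 and Gbp4 overlap on the same strand, as do Igtp and Irgm2, so strand cannot separate reads in those stretches.

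The 3 immunity-related GTPase genes and Gbp2 were the most abundant members per length of transcript. Per kilobase of merged exons, median levels over the 18 libraries were 6.85 CPM for Irgm1, 4.89 for Igtp, 4.41 for Gbp2 and 4.23 for Irgm2. The other guanylate-binding protein genes had medians of 1.56 CPM per kilobase (Gbp3), 1.41 (Gbp7), 1.40 (Gbp8), 1.21 (Gbp9), 1.07 (Gbp6) and 0.536 (Gbp4). Ranges overlapped between neighbours in this order. All values below are CPM scaled by trimmed mean of M-values (TMM) factors, without division by length, and are compared within a gene.

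Levels varied more between libraries of a group than between groups for most of the genes. The share of the variance of log2 CPM that lay between the 6 groups was 67.1% for Gbp8 and 59% for Gbp9, 7.16% to 30.9% for the other 8 genes, and 42.1% for the median of all tested genes. The widest range was that of Gbp8, with 11.4 CPM in DKO water replicate A and 1.21 CPM in WT water replicate B, a 9.39-fold span. Irgm1 had the narrowest span, 2.05-fold, between 30.8 CPM in DKO DSS replicate B and 63.2 CPM in LAO1KO DSS replicate C.

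**Figure D2:**
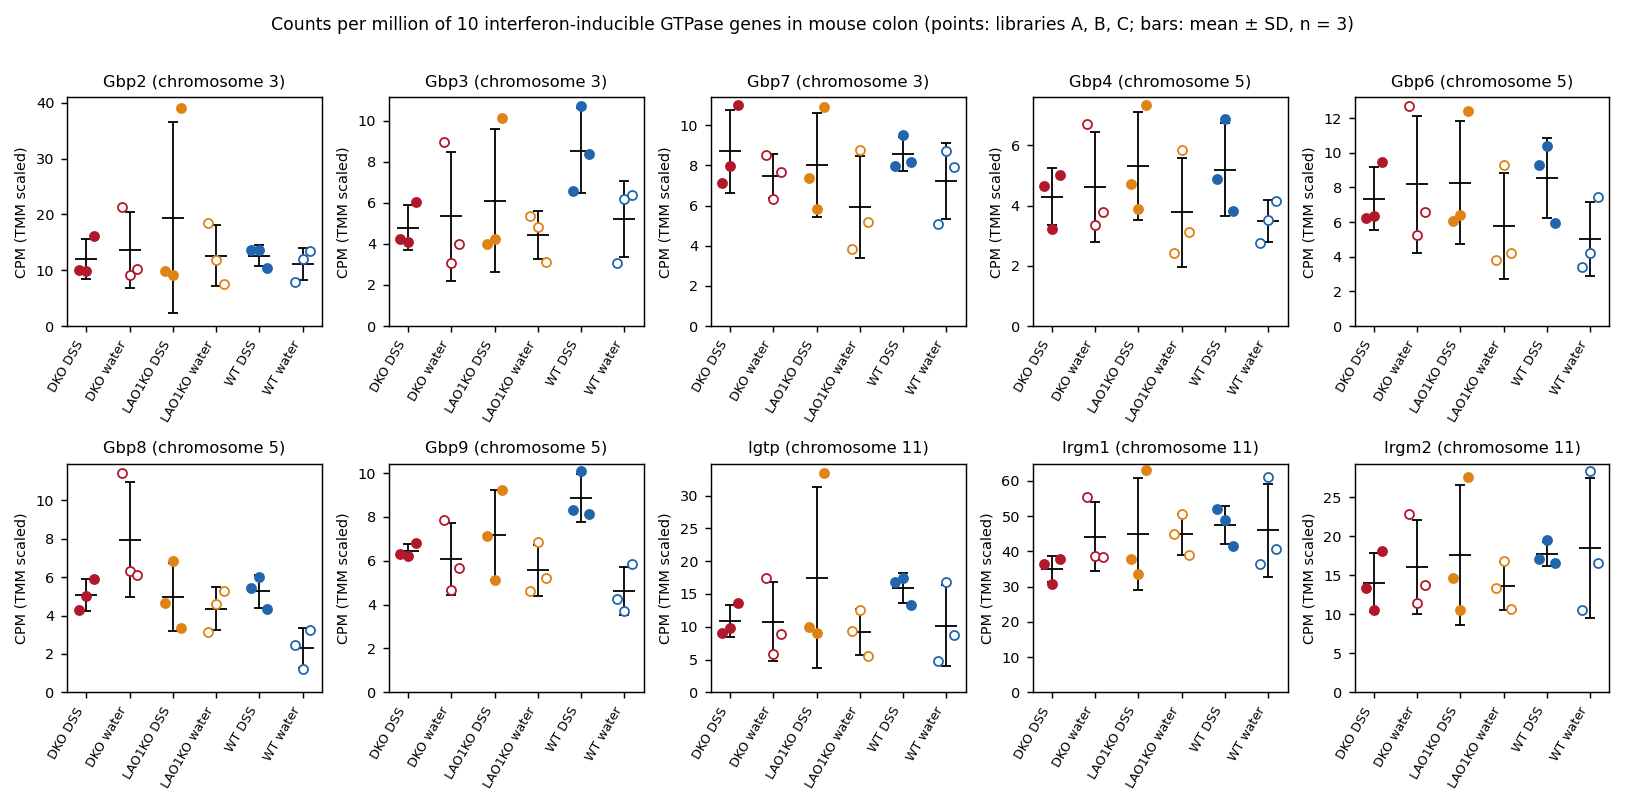
TMM-scaled CPM of the 10 genes in the 6 groups; points are libraries, coloured by genotype label (filled, DSS; open, water), and bars are mean ± SD (n = 3). Gbp9 libraries of the WT DSS group lie at 8.11 to 10.1 CPM, above those of the WT water group at 3.73 to 5.83 CPM, while LAO1KO DSS replicate C stands far above its group for Gbp2 and Igtp.

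DSS for 24 hours moved few of the 10 genes. Averaged over the 3 genotypes, Gbp9 rose and none fell, which is 1 of 10 members called, against 15.9% of all tested genes called in either direction and 6.72% called higher and 9.18% called lower, so the members' share was near the background. Fold changes were positive for 9 of the 10, with a median log2 fold change of 0.31, against 0.03 for all tested genes. The exception was Irgm1 at -0.10 ± 0.13 (SE, edgeR quasi-likelihood test, adjusted p = 0.647). The members varied together from library to library, as described below, so counts of directions here and below are not counts of independent genes. Gbp9 was at 0.47 ± 0.14 (edgeR adjusted p = 0.0335). It kept the call in 7 of 18 fits that each left out 1 library, at 0.38 to 0.54, and lost it without the 3 libraries that stand apart (0.39, adjusted p = 0.0887). Limma with library weights also called Gbp7 and Igtp, in a fit that called 6179 of all genes, against 2996 by edgeR.

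In WT colon Gbp8 and Gbp9 rose under DSS. Gbp9 had 8.33, 10.1 and 8.11 CPM in WT DSS replicates A, B and C, against 4.26, 3.73 and 5.83 CPM in WT water replicates A, B and C. Every DSS library was above every water library. The log2 fold change was 0.94 ± 0.25 (SE; 95% interval 0.42 to 1.46), with an adjusted p of 0.0204 by edgeR's quasi-likelihood test with Benjamini-Hochberg adjustment over all 18848 genes. Gbp8 had 5.41, 6.01 and 4.35 CPM in WT DSS libraries, against 2.48, 1.21 and 3.25 CPM in WT water libraries. Again the groups did not overlap, and the lowest library was WT water replicate B, with 38 counts. The log2 fold change of Gbp8 was 1.18 ± 0.35 (95% interval 0.44 to 1.92, edgeR adjusted p = 0.0349). Gbp9 lost the call without WT water replicate A, WT water replicate B or WT DSS replicate B, at 0.90, 0.81 and 0.80. Gbp8 kept it only without WT water replicate C (1.52), and without WT water replicate B it was at 0.88 (edgeR adjusted p = 0.146). Without the 3 libraries that stand apart Gbp8 was at 0.96 (edgeR adjusted p = 0.118) and Gbp9 at 0.84 (adjusted p = 0.101), and neither was called.

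These 2 of 10 members called higher in WT compare with 12.9% of all tested genes called in this comparison and 6.29% called higher. The median log2 fold change of the members was 0.62, against 0.02 for all tested genes, and 9 of 10 were positive. Gbp3 was the third member whose groups did not overlap, with 6.56, 10.7 and 8.35 CPM in WT DSS and 3.09, 6.18 and 6.39 CPM in WT water libraries, but its log2 fold change of 0.71 ± 0.42 did not pass (edgeR adjusted p = 0.271). Non-overlap with DSS higher was seen in 18% of all tested genes. Igtp had 16.9, 17.5 and 13.3 CPM in WT DSS, against 4.76, 16.9 and 8.75 CPM in WT water, where replicate B reached the DSS level. Its log2 fold change was 0.65 ± 0.54 (95% interval -0.51 to 1.81). The remaining members of this comparison, Gbp2, Gbp4, Gbp6, Gbp7, Irgm1 and Irgm2, had log2 fold changes between -0.06 (Irgm2) and 0.77 (Gbp6), none of which passed.

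The 2 WT groups also differed in other respects. Mitochondrial mRNAs were 26.94%, 26.11% and 44.94% of counts in WT DSS libraries and 7.652%, 6.889% and 9.084% in WT water libraries. With these mRNAs removed, Gbp9 was at 0.93 (edgeR adjusted p = 0.0224) and Gbp8 at 1.17 (0.0387). B cell markers summed to 12.32 to 22.96 CPM in WT DSS and 3.315 to 9.468 CPM in WT water libraries, with 8 of 8 higher and 0 called. T and natural killer cell markers summed to 10.23 to 15.97 CPM in WT DSS and 2.646 to 12.11 CPM in WT water libraries, with 9 of 11 higher and 0 called. Fibroblast markers fell, with 3 of 6 called lower against 6.59% of all tested genes, summing to 291.6 to 650.5 CPM in WT DSS and 640.5 to 1100 CPM in WT water libraries. Red cell markers summed to 102.8 to 410.0 CPM in WT DSS and 41.41 to 110.1 CPM in WT water libraries, with 5 of 5 higher and 0 called. Smooth muscle markers (6 of 6) and adipocyte markers (6 of 6) were lower, with 0 called. The part of these cells in the GTPase values was not tested. In whole tissue, fewer cells of a type and less RNA per cell cannot be told apart.

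In the libraries labelled LAO1KO no member was called after DSS, against 0.196% of all tested genes. None had an unadjusted p under 0.05, and DESeq2 and limma also called 0 members. Of all genes, however, DESeq2 called 674 and limma 4990 here, against 37 by edgeR. The members' median log2 fold change was 0.45, against 0.02 for all tested genes, with 9 of 10 positive, but this rested on replicate C. Igtp had 9.96, 9.07 and 33.4 CPM in LAO1KO DSS replicates A, B and C, against 9.39, 12.6 and 5.61 CPM in LAO1KO water replicates. Gbp2 had 9.88, 9.14 and 39.1 CPM in LAO1KO DSS and 18.5, 11.8 and 7.58 CPM in LAO1KO water libraries. For both genes DSS replicates A and B lay within the water range and replicate C stood alone above it. Leaving out replicate C moved the log2 fold change of Gbp2 to -0.41 and that of Igtp to 0.04, against 0.61 and 0.92 with it.

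In the libraries labelled DKO no member was called after DSS either, against 0.0159% of all tested genes. None had an unadjusted p under 0.05, and DESeq2 and limma called 0 members. Of all genes, DESeq2 called 174 and limma 478, against 3 by edgeR. Here the members' median log2 fold change was -0.15, against 0.02 for all tested genes, and 3 of 10 were positive. These directions depended on single libraries, and DKO water replicate A was the highest of its group for all 10 members. In fits that each left out 1 library, only Gbp8 and Irgm1 stayed negative throughout. The others reached positive values, from 0.15 for Irgm2 to 0.56 for Igtp. Gbp8 had 4.27, 4.99 and 5.91 CPM in DKO DSS libraries, against 11.4, 6.31 and 6.12 CPM in DKO water libraries. All 3 DSS libraries were below the water ones, but the log2 fold change of -0.65 ± 0.34 did not pass (95% interval -1.36 to 0.06, edgeR adjusted p = 0.563). Irgm1 was likewise lower without overlap, at 36.3, 30.8 and 37.8 CPM in DKO DSS and 55.4, 38.7 and 38.3 CPM in DKO water libraries, with a log2 fold change of -0.33 ± 0.23 (edgeR adjusted p = 0.668). Non-overlap with DSS lower was seen in 10.4% of all tested genes. Gbp9, which rose in WT, had a log2 fold change of 0.09 ± 0.24 here, with 6.33, 6.23 and 6.80 CPM in DKO DSS and 7.88, 4.67 and 5.65 CPM in DKO water libraries.

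The differences between these DSS responses were tested as interactions, in which the log2 fold change in the knockout-labelled libraries is set against that in WT. For DKO, all 10 members had negative differences, with a median of -0.66, against 0.00 for all tested genes. Because the members vary together between libraries, these are not 10 independent directions. When single libraries were left out, the differences of Gbp2, Gbp7 and Irgm2 reached 0.13, 0.17 and 0.21. None was called, against 0.0584% of all tested genes, and 2 had an unadjusted p under 0.05. These were Gbp8, at -1.83 ± 0.49 (95% interval -2.86 to -0.80, edgeR adjusted p = 0.121), and Gbp9, at -0.85 ± 0.35 (-1.58 to -0.12, adjusted p = 0.252). DESeq2 called Gbp8 (adjusted p = 0.0198), as did limma with library weights (0.0466). Of all genes, DESeq2 called 492 and limma 235 in this interaction, against 11 by edgeR. For LAO1KO 0 members were called, against 0% of all tested genes, and 0 had an unadjusted p under 0.05. The difference was -0.99 ± 0.49 for Gbp8 (edgeR adjusted p = 0.33), which limma with library weights called (0.035) and DESeq2 did not. Limma called 2324 of all genes here and DESeq2 441, against 0 by edgeR. Because the WT libraries enter both interactions, the 2 are not independent.

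**Figure D3:**
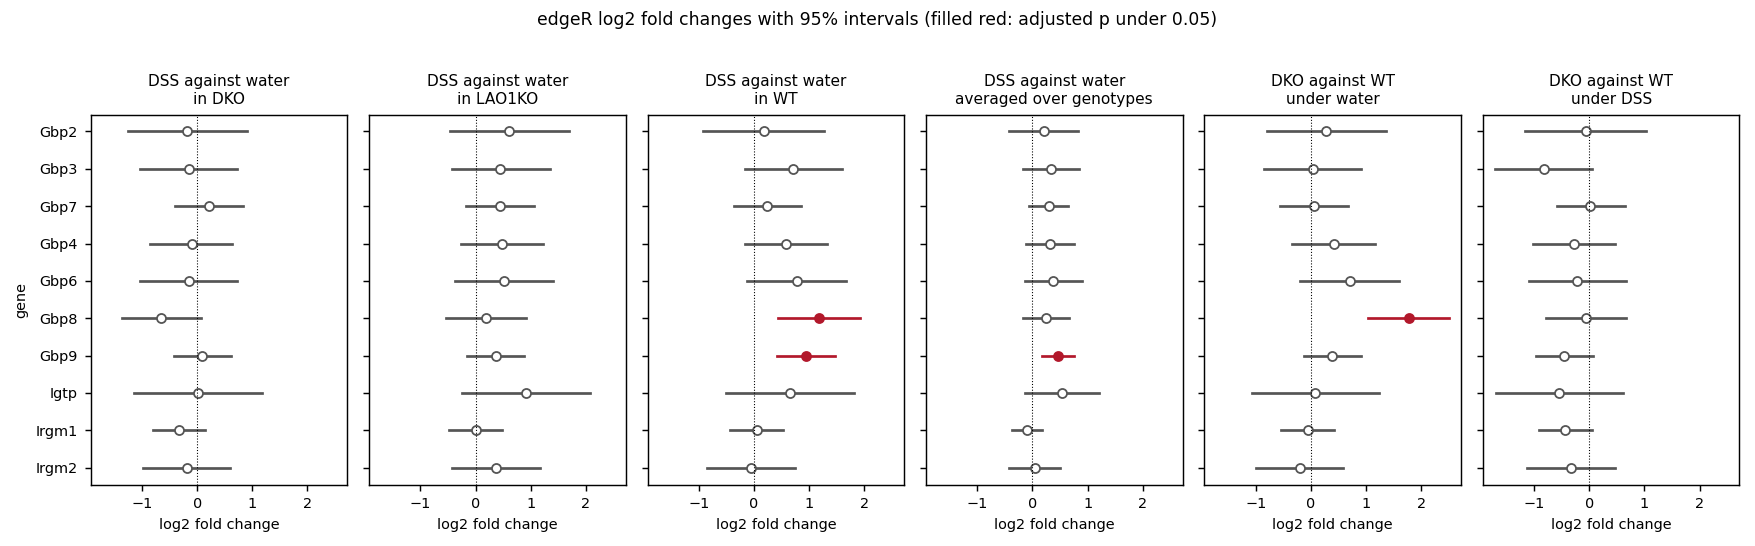
Log2 fold changes of the 10 genes (points) with 95% intervals (lines) from edgeR, for DSS against water in each genotype and on average, and for DKO against WT in each drinking condition; filled red marks an adjusted p under 0.05. Gbp8 and Gbp9 are marked for DSS in WT, Gbp9 on average, and Gbp8 for DKO against WT under water at 1.77.

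Between genotypes under water, Gbp8 was higher in the libraries labelled DKO than in WT. It was the 1 member of 10 called, against 0.621% of all tested genes called in either direction, 0.371% higher and 0.249% lower. Gbp8 had 11.4, 6.31 and 6.12 CPM in DKO water libraries, against 2.48, 1.21 and 3.25 CPM in WT water libraries. Every DKO library was above every WT one, and non-overlap with DKO higher was seen in 11.6% of all tested genes. The log2 fold change was 1.77 ± 0.35 (95% interval 1.03 to 2.51, edgeR adjusted p = 0.0314). The call was lost without DKO water replicate A (1.42), DKO water replicate C (1.93), WT water replicate A (1.80) or WT water replicate B (1.44). Without the 3 libraries that stand apart the log2 fold change was 1.43 (edgeR adjusted p = 0.0797). The libraries labelled LAO1KO lay between, at 3.12, 4.62 and 5.30 CPM under water, overlapping the WT libraries, with a log2 fold change against WT of 0.90 ± 0.35 (edgeR adjusted p = 0.265) and of DKO against LAO1KO of 0.87 ± 0.34 (adjusted p = 0.801).

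The WT water libraries are shared by the 2 comparisons in which Gbp8 was called, DSS in WT and DKO against WT under water. Ordered by group mean, Gbp8 stood at 7.93 ± 2.98 CPM in DKO water, 5.26 ± 0.842 in WT DSS, 5.06 ± 0.823 in DKO DSS, 4.95 ± 1.78 in LAO1KO DSS, 4.35 ± 1.11 in LAO1KO water and 2.31 ± 1.03 in WT water libraries (SD, n = 3 each). The 4 groups in the middle overlapped one another. Mitochondrial mRNAs were 10.52% to 20.7% of counts in DKO water and 6.889% to 9.084% in WT water libraries. T and natural killer cell markers summed to 10.71 to 18.39 CPM in DKO water and 2.646 to 12.11 CPM in WT water libraries (10 of 11 higher, 0 called), and fibroblast markers to 306.5 to 535 CPM in DKO water and 640.5 to 1100 CPM in WT water libraries (6 of 6 lower, 0 called). B cell markers summed to 1.471 to 38.18 CPM in DKO water and 3.315 to 9.468 CPM in WT water libraries (8 of 8 higher by fitted fold change, 0 called), with DKO water replicate C far above the rest. Smooth muscle markers summed to 1293 to 3341 CPM in DKO water and 3257 to 5748 CPM in WT water libraries, and adipocyte markers to 33.31 to 105.2 CPM in DKO water and 43.72 to 531.9 CPM in WT water libraries (each 6 of 6 lower, 0 called). Their part in the Gbp8 difference was not tested.

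The other genotype comparisons called no member. They were LAO1KO against WT under water, where 0.0531% of all tested genes were called, LAO1KO against WT under DSS (0.0849%), DKO against LAO1KO under water (0.0796%), DKO against LAO1KO under DSS (0.0637%) and DKO against WT under DSS (0.255%). An unadjusted p under 0.05 was seen for Gbp8 in LAO1KO against WT and in DKO against LAO1KO, both under water, and for no member in the 3 comparisons under DSS. DESeq2 called 0 members in all 5, and limma with library weights called Gbp8 in LAO1KO against WT under water (adjusted p = 0.0438). Limma called 933 of all genes in that comparison, against 10 by edgeR. Under DSS, DKO values were lower than WT values for 9 of 10 members, with a median log2 fold change of -0.31, against 0.00 for all tested genes. Gbp3, Gbp9 and Irgm1 did not overlap: Irgm1 had 36.3, 30.8 and 37.8 CPM in DKO DSS libraries, against 52.1, 48.8 and 41.6 CPM in WT DSS libraries. Non-overlap with DKO lower was seen in 11.6% of all tested genes. The log2 fold changes of DKO against WT under DSS were -0.83 ± 0.42 for Gbp3, -0.46 ± 0.24 for Gbp9 and -0.44 ± 0.23 for Irgm1 (edgeR adjusted p = 0.536, 0.548 and 0.542).

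The members varied together from library to library, and Gbp8 took little part in this. The summed level of the 10 genes was highest in LAO1KO DSS replicate C, at 216.6 CPM, and lowest in WT water replicate A, at 80.62 CPM. LAO1KO DSS replicate C was among the top 3 of 18 libraries for 9 of the 10 genes and the highest for Gbp2, Gbp4, Igtp and Irgm1. DKO water replicate A was among the top 3 for 8 genes, and WT water replicate A among the bottom 3 for all 10. Not all members moved alike in WT water replicate B, which had the highest sum of its group (145.9 CPM). It was the highest of 18 libraries for Irgm2 but the lowest for Gbp8 and Gbp9. Within the LAO1KO DSS, DKO water and WT water groups, the summed level spanned 2.29-fold, 1.84-fold and 1.81-fold. The span was 1.48-fold within LAO1KO water, 1.38-fold within DKO DSS and 1.27-fold within WT DSS.

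**Figure D4:**
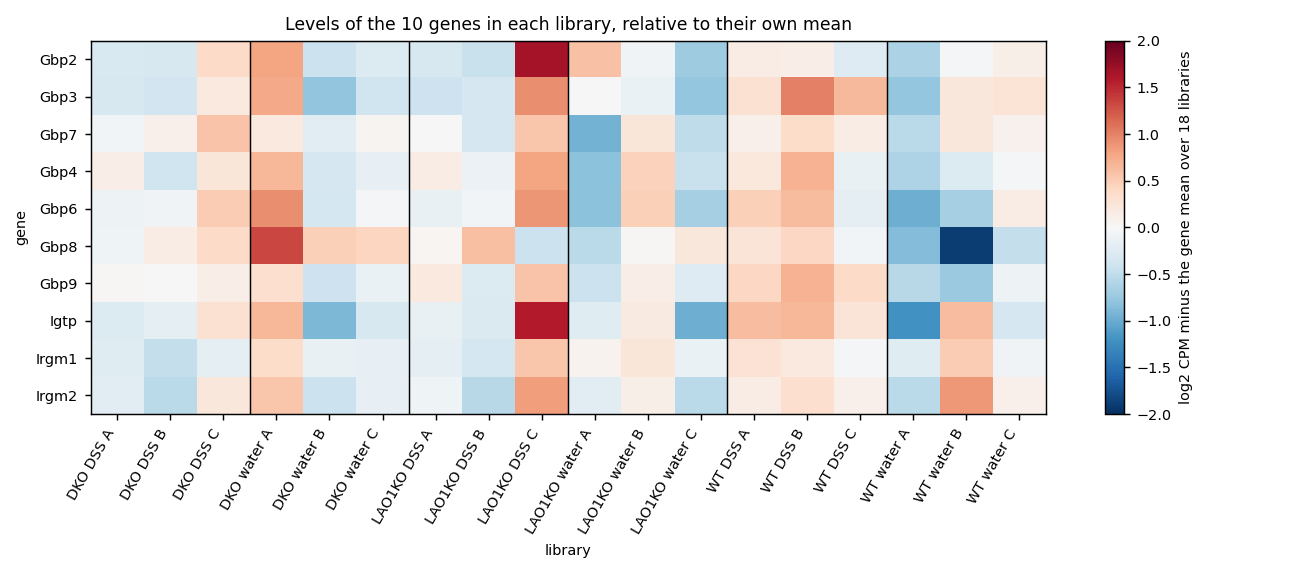
Log2 CPM of each gene minus its own mean over the 18 libraries (colour), with libraries in columns by group and genes in rows. LAO1KO DSS replicate C and DKO water replicate A are high for nearly all genes, WT water replicate A is low for all 10, and the Gbp8 row departs from the others.

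Over the 18 libraries, each gene was set against the mean log2 CPM of the other 9. Pearson's r was 0.90 for Gbp6, 0.88 for Gbp4, 0.87 for Igtp, 0.83 for Gbp3, 0.78 for Gbp9, 0.74 for Gbp7 and Irgm2, 0.72 for Gbp2 and 0.62 for Irgm1, with Spearman's rho between 0.56 and 0.88. For Gbp8 r was 0.15 and rho 0.12. Without the 2 libraries farthest from the median, r stayed at 0.74 or more for Gbp3, Gbp4, Gbp6, Gbp7, Gbp9 and Igtp, and was 0.59 for Irgm2, 0.51 for Gbp2, 0.38 for Irgm1 and 0.17 for Gbp8. Computed within groups, on deviations from the group means, r lay between 0.78 and 0.89 for the 9 genes other than Gbp8 and was -0.05 for Gbp8. These are descriptions over libraries that share their scaling, and no test is attached.

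By pairs, the 36 without Gbp8 had a median r of 0.69 and the 9 with Gbp8 a median of 0.04. The closest pairs were Gbp4 with Gbp6 (0.93), Gbp3 with Igtp (0.88), Irgm1 with Irgm2 (0.88) and Igtp with Irgm2 (0.87). Of these, Gbp3 and Igtp lie on different chromosomes. Leaving Gbp8 aside, 9 pairs on the same chromosome had a median r of 0.81 and 27 pairs on different chromosomes a median of 0.69. Gbp8 was nearest to its chromosome 5 neighbours Gbp6 (0.53), Gbp9 (0.49) and Gbp4 (0.38), and negative with Irgm1 (-0.25) and Irgm2 (-0.23).

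**Figure D5:**
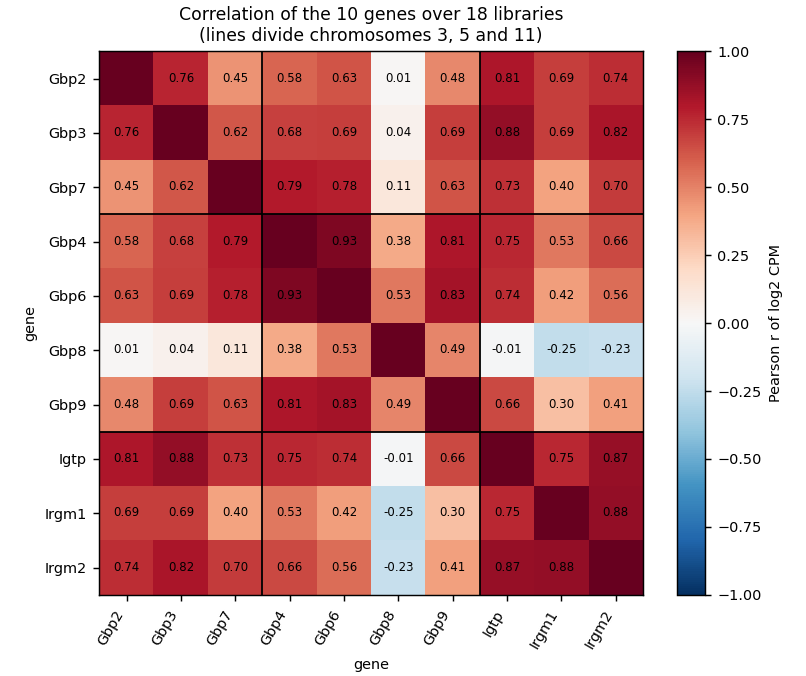
Pearson's r of log2 CPM between the 10 genes over 18 libraries (numbers and colour), ordered by chromosome. The Gbp8 row and column lie between -0.25 and 0.53, and the other pairs between 0.30 and 0.93.

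Among 15169 genes that are no members and averaged at least 1 CPM, those most like the mean of the 10 over the 18 libraries were largely other products of interferon gamma signalling. They were Iigp1 (r = 0.92), an effector immunity-related GTPase, Tap1 (0.89), a peptide transporter of antigen presentation, and Cxcl9 (0.87), a chemokine that draws T cells. Next came the GTPase genes Gbp10 (0.83), Tgtp1 (0.82), Gm12250 (0.81) and Tgtp2 (0.79), with Nlrc5 (0.82), the activator of MHC class I genes, Zbp1 (0.78), a sensor of left-handed nucleic acids, and Osgepl1 (0.77). Gbp10, Tgtp1 and Tgtp2 have close paralogs, so their counts are uncertain. As whole lists, the mean of 16 other interferon-inducible GTPase genes had r = 0.92 with the members' mean, 23 other interferon gamma targets 0.76 and the interferon gamma signal list 0.67. Brakes on interferon signalling had 0.65, inflammasome and membrane attack partners 0.57 and 22 type I interferon targets 0.54. Autophagy partners had 0.02, and genes for lipidation and ubiquitin-like support 0.01. Markers of other cells had r = 0.38 for adipocytes, 0.35 for red cells, 0.29 for endothelium and 0.26 for T and natural killer cells. Lower values were 0.10 for neutrophils, 0.03 for epithelium and -0.17 for fibroblasts. The lowest were -0.30 for B cells, -0.32 for macrophages and dendritic cells and -0.36 for smooth muscle. Computed within groups, r was 0.57 for adipocyte, 0.48 for endothelial and -0.58 for B cell markers, against 0.51 for type I interferon targets. In LAO1KO DSS replicates A, B and C, adipocyte markers summed to 1650, 112.7 and 1333 CPM, and the 8 B cell markers to 17.96, 45.55 and 1.267 CPM. Replicate C, the highest library for the GTPases, was thus second for adipocyte markers and lowest for B cell markers in its group.

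The ligand itself was hardly seen. Ifng, which encodes interferon gamma, had 2 counts in all, both in WT DSS replicate B, and 0 counts in the other 17 libraries. A count of 0 allows up to 3 counts, which is 0.0792 to 0.176 CPM in these libraries and covers counting error only. Of the signal's receptor and relay genes, 9 passed the filter. Averaged over genotypes, 2 of these 9 were called, both lower, against 15.9% of all tested genes called in either direction and 9.18% called lower. Ifngr1, the ligand-binding receptor chain, had a log2 fold change of -0.22 ± 0.07 (edgeR adjusted p = 0.0422). Jak2, a kinase of the receptor, was at -0.35 ± 0.08 (edgeR adjusted p = 0.00919). Jak2 kept the call in 18 of 18 fits that each left out 1 library. Ifngr1 kept it in 6 of 18, at -0.25 to -0.19 over all alternatives, and lost it without any 1 of the WT water or DKO water libraries, LAO1KO water replicates B or C, WT DSS replicate C, LAO1KO DSS replicate A, or DKO DSS replicates B or C. The log2 fold changes of the receptor chain Ifngr2 (-0.27), the kinase Jak1 (-0.05), and the transcription factors Stat2 (0.31), Irf1 (0.01), Irf8 (-0.00) and Irf9 (0.08) did not pass. In WT alone 0 of the 9 were called, with 1 unadjusted p under 0.05, for Irf1 (0.31 ± 0.14, edgeR adjusted p = 0.149). Of the 7 brakes on the pathway Socs3 rose on average (0.45 ± 0.13, edgeR adjusted p = 0.0247), but not without replicate B of any 1 DSS group. This 1 of 7 was near the 15.9% of all tested genes called in either direction, with 6.72% called higher. The count of 1 brake became 3 without WT water replicate B, 2 without LAO1KO water replicate A and 3 without the 3 libraries that stand apart. In WT 0 were called, with 2 at an unadjusted p under 0.05.

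Some of the other interferon gamma targets rose in WT under DSS. In that comparison 8 of 23 were called higher and 0 lower, against 12.9% of all tested genes called in either direction, 6.29% higher and 6.59% lower. They were the immunoproteasome subunits Psmb8, Psmb9 and Psmb10, the proteasome activators Psme1 and Psme2, the peptide transporter Tap2, B2m, the light chain of MHC class I, and the ubiquitin-like Ubd. B2m averaged 953 ± 38.6 CPM in WT DSS and 509 ± 85.1 CPM in WT water libraries (SD, n = 3 each), a log2 fold change of 0.90 ± 0.16 (edgeR adjusted p = 0.00305). Ubd averaged 11.3 ± 3.87 CPM in WT DSS and 2.29 ± 1.40 CPM in WT water libraries, a log2 fold change of 2.29 ± 0.50 (edgeR adjusted p = 0.00946). The count of 8 became 3 without WT water replicate B, 5 without WT DSS replicate A or C, and 1 without the 3 libraries that stand apart, where Ubd was at 1.60 (edgeR adjusted p = 0.0851). Averaged over genotypes 3 of 23 were called higher, against 15.9% of all tested genes called in either direction and 6.72% called higher. The count became 5 to 7 without WT water replicate C, LAO1KO water replicate A or DKO water replicate A. The 3 targets were Cxcl10 (1.20 ± 0.28), Psme1 (0.37 ± 0.10) and Icam1 (0.55 ± 0.15). Some of these genes, such as Psmb8 and Psmb9, are also induced by type I interferon. Of 22 type I interferon targets 0 were called in WT by edgeR, with 2 at an unadjusted p under 0.05 against 29.5% of all tested genes. That count became 5 without WT water replicate B and 7 without the 3 libraries that stand apart, fits in which the interferon gamma targets had 3 and 1, and it was 5 by limma and 1 by DESeq2. Of all genes, these fits called 777, 981, 3377 and 3468 in the same order, against 2428 in the main fit. On average over genotypes 0 of the 22 type I targets were called by edgeR, with 5 at an unadjusted p under 0.05. The count became 8 without WT water replicate B, 14 without the 3 libraries, 16 by limma and 3 by DESeq2. Of all genes, 3311 were called without the 3 libraries, 6179 by limma and 3988 by DESeq2, against 2996 in the main fit. Fits that left out 1 library called 1928 to 3551.

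Between genotypes, B2m was the 1 interferon gamma target of 23 called, higher in DKO against WT under water, where 0.371% of all tested genes were called higher. It averaged 921 ± 113 CPM in DKO water and 509 ± 85.1 CPM in WT water libraries (log2 fold change 0.85 ± 0.16, edgeR adjusted p = 0.0212). It was also the 1 of 23 called in the DKO interaction, against 0.0265% of all tested genes called lower there, at -1.36 ± 0.22 (edgeR adjusted p = 0.0328). The WT water and DKO water libraries enter both comparisons, and the WT water libraries also enter the B2m call for DSS in WT. These calls are therefore not independent. Under DSS B2m averaged 672 ± 112 CPM in DKO and 953 ± 38.6 CPM in WT libraries. The first call was lost without WT water replicates A or B or DKO water replicate A (0.74 to 0.81), and the interaction was called in 3 of 12 fits that each left out 1 library, at -1.51 to -1.18 over all alternatives. Without the 3 libraries that stand apart B2m was at 0.73 (edgeR adjusted p = 0.0692) and its interaction at -1.18 (adjusted p = 0.0785). Fitted with only the groups compared, B2m was at 0.85 (edgeR adjusted p = 0.158) and its interaction at -1.32 (adjusted p = 0.068). Without WT water replicate C the count of targets called became 3 for DKO against WT under water and 4 for the interaction, and DESeq2 gave 4 for each. Mx2, a dynamin-like GTPase induced by type I interferon, was the 1 of 16 other GTPases called, lower in DKO than in WT under water. In that comparison 0.249% of all tested genes were called lower. Mx2 was at 0.358 ± 0.0137 CPM in DKO water and 2.16 ± 1.39 CPM in WT water libraries. Its log2 fold change was -2.57 ± 0.51 (edgeR adjusted p = 0.0314), and it was not called without WT water replicate B (-1.94), any 1 DKO water library or the 3 libraries that stand apart (-1.95, edgeR adjusted p = 0.0855). Mx2 was also not called by limma with library weights (-1.93, adjusted p = 0.111) or with only the groups compared (-2.57, edgeR adjusted p = 0.158).

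Among the genes with which the GTPases are known to work, of 13 inflammasome and membrane attack partners 4 rose in WT under DSS, against 6.29% of all tested genes called higher. They were the lipopolysaccharide-sensing caspase gene Casp4 (0.96 ± 0.18), Casp1 (0.91 ± 0.18), the pore-forming Gsdmd (0.70 ± 0.18) and the DNA sensor Aim2 (0.56 ± 0.14), with edgeR adjusted p between 0.00454 and 0.0208. Casp4 averaged 43.2 ± 6.00 CPM in WT DSS and 22.2 ± 3.69 CPM in WT water libraries, and the count of 4 became 2 without WT DSS replicate A. Gsdmd was at 0.36 (edgeR adjusted p = 0.121) without the 3 libraries that stand apart. On average over genotypes Casp4 and the adaptor Pycard rose, by 0.41 ± 0.10 and 0.41 ± 0.11 on the log2 scale, 2 of 13 against 6.72% of all tested genes called higher. That count became 5 without WT water replicate B, 4 without LAO1KO water replicate A and 6 without the 3 libraries. Of 15 autophagy partners, Map1lc3a and the receptor Tax1bp1 rose in WT (0.55 ± 0.16 and 0.57 ± 0.17). This count was near the 12.9% of all tested genes called in either direction, with 6.29% called higher. It became 0 without WT water replicate A, WT water replicate B or WT DSS replicate C and 1 without WT DSS replicate A, and without the 3 libraries Map1lc3a was at 0.32 (edgeR adjusted p = 0.161) and Tax1bp1 at 0.25 (adjusted p = 0.382). On average the conjugation genes Atg5 and Atg16l1 fell by 0.31 and 0.22 on the log2 scale, and the receptor Calcoco1 rose by 0.28, or 3 of 15 against 15.9% of all tested genes called in either direction. Without the 3 libraries Calcoco1 was at 0.20 (edgeR adjusted p = 0.155). This count of 3 ran between 1 and 5 when single libraries were left out, and Atg5 was called in 18 of 18 such fits, Atg16l1 in 12 and Calcoco1 in 5. Of 16 other interferon-inducible GTPase genes, 1 was called in WT under DSS, near the 6.59% of all tested genes called lower, with 12.9% called in either direction. This was the divergent member Irgq, which fell by 0.77 on the log2 scale. Irgq was not called without WT water replicate B, WT DSS replicate C or the 3 libraries together (-0.50, edgeR adjusted p = 0.0882). Of 7 genes for lipidation and ubiquitin-like support 0 were called by edgeR for DSS in WT or on average, with 0 at an unadjusted p under 0.05 in both.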

How the data were processed

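The 10 genes and the gene lists were chosen with earlier results of these data known. The deposited table holds raw read counts per gene symbol, 1 column per library, made by the authors. The submitters' processing notes name, with no role or order, StringTie 2.1.3b, HISAT2 2.1.0, Trimmomatic 0.38, FastQC 0.11.7, R 4.3.2, DESeq2 1.42.1 and the builds GRCm38 and mm10, and per the labels' protocols the libraries were stranded. How multiply mapped reads and strand were counted is not given in the sources used here.

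Counts were analysed in R 4.3.3 with edgeR 4.0.16. Genes were filtered with filterByExpr, scaled by TMM, and fitted with robust quasi-likelihood models to all 18 libraries with 1 mean per group. In all, 12 contrasts were tested, with Benjamini-Hochberg adjustment over 18848 genes and a threshold of 0.05. Every adjusted p comes from this test unless DESeq2 1.42.0 or limma 3.58.1 (voom with library weights) is named. P-values rest on the spread between libraries within groups, estimated over all 6 groups together and not from the groups compared alone. Alternatives were DESeq2's size factors, DESeq2, limma, other filters, removal of mitochondrial mRNAs, non-robust estimation, fits of only the groups compared, and leaving out libraries. Log2 CPM for correlations used a prior count of 2. The steps were tested on simulated data. No library pair of a group agreed within sampling noise.

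All 10 members were named, with every gene but 1 (not reported here) of the interferon gamma signal list that passed the filter and, of other lists, the called genes, up to 4 by p in each direction; further called gamma targets were named after their values were seen. Genes like the members were the 10 of highest r among those with a mean of at least 1 CPM. Replicate letters are not said to pair animals. Same-letter libraries correlated in their deviations from the group means above 0.10 in all 3 pairs for DSS in WT (r = 0.19, 0.17 and 0.22) and in no other comparison of 2 groups, and a fit with the letters as a block is given as an alternative. RefSeq (GRCm38.p6) gave positions and promoters, and GENCODE M21 gave transcripts.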

Additional observations from a re-analysis of the deposited data

How the results depend on the processing

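No direction of a called value reversed. The count of members called was unchanged by DESeq2's size factors, both other filters on low counts, removal of mitochondrial mRNAs and non-robust estimation. Fitting only the groups compared, which leaves fewer libraries to estimate the spread, gave 0 for DSS in WT and 0 for DKO against WT under water, and is the same fit for the average over genotypes. DESeq2 gave 1 for the DKO interaction. Limma with library weights gave 3 for DSS averaged over genotypes and 1 each for LAO1KO against WT under water, the LAO1KO interaction and the DKO interaction. Leaving out 1 library at a time gave 0 to 1 members for DSS averaged over genotypes, 0 to 2 for DSS in WT, 0 to 1 for DKO against WT under water, and 0 for the other 9 comparisons. Without the 3 libraries that stand apart, an alternative added after seeing the data, the counts were 0 for DSS averaged over genotypes, for DSS in WT and for DKO against WT under water. The cause of these losses was not tested.

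With the replicate block, the members called were 1 for DSS averaged over genotypes, 2 for DSS in WT, 1 for DKO against WT under water and 0 elsewhere, so the block changed no member's call. In WT, Gbp9 was then at 0.96 and Gbp8 at 1.19 (edgeR adjusted p = 0.0211 and 0.0452).

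The count of all genes called moved with the setting. For DSS in WT it was 2428, against 1083 with only the groups compared, 981 without the 3 libraries, up to 3468 by DESeq2, and 777 to 2702 when 1 library was left out. For DKO against WT under water it was 117, against 783 by DESeq2, 213 by limma, 178 with the replicate block, 32 with only the groups compared, and 30 to 387 with 1 library left out. For DSS averaged over genotypes it was 2996, against 6179 by limma and 1928 to 3551 with 1 library left out. For the comparisons with no member called, the range over the alternatives that keep all libraries or drop the 3 together was 0 to 4990 around 37 for DSS in LAO1KO, 3 to 478 around 3 for DSS in DKO, 4 to 933 around 10 for LAO1KO against WT under water and 16 to 967 around 16 under DSS, 43 to 459 around 48 for DKO against WT under DSS, 4 to 48 around 15 for DKO against LAO1KO under water and 9 to 2530 around 12 under DSS, 0 to 2324 around 0 for the LAO1KO interaction, and 6 to 492 around 11 for the DKO interaction. Depth limits the lowest values: the smallest count in a library was 38 for Gbp8, 65 for Gbp4 and 98 for Gbp3.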
